A study of Rattus norvegicus with 92 samples.

Results

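Muscle-restricted transcripts were examined across 8 tissues of male Wistar-Kyoto rats that inhaled filtered air or acrolein. A transcript was a member when its mean level in air-exposed muscle was at least 30 CPM (the reads of a transcript after every library is scaled to the same total) and at least 20 times its mean air level in nasal epithelium, lung, liver, adrenal, adipose, hippocampus and hypothalamus alike. Hippocampus air replicate 2 was kept out of the hippocampus mean, because it was already known to hold muscle transcripts. The 2 adipose libraries labelled 8 were averaged first. The rule took 134 of 20508 rows, all with Ensembl transcript identifiers, out of 3508 rows that reached 30 CPM in air muscle. Air levels therefore chose the members and are given as a description. The same air libraries form one arm of every acrolein comparison, so members chosen for being high in air muscle and low in the other air tissues may lean towards lower acrolein values in muscle and higher ones elsewhere by selection, and no count of higher or lower members below is free of that.

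Rats 12 to 13 weeks old were exposed nose-only for 4 h to 0 ppm acrolein (air) or to acrolein that was stepped up to 3.16 ppm, and the labels name no other treatment or genetic change in either group. Per tissue there were 5 to 8 air and 4 to 6 acrolein libraries, 92 in all, each an mRNA library from bulk tissue. Total reads per library ran from 2513375 to 30194066, and in muscle from 15091914 to 24956600. The labels name the tissue only as muscle, without the muscle it came from. The identifiers are not paired with gene symbols in the files or tables used here, so members are named by identifier, their proteins are not given, and the tissue label could not be checked against named markers.

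Muscle fibres fill much of their messenger RNA pool with transcripts for the contractile filaments, for calcium release and uptake, and for rapid energy supply. Slow and fast fibres draw on different members of the same protein families, so muscles that differ in fibre makeup differ in these transcripts. Other organs hold smooth muscle, blood vessels or attached connective tissue, and many proteins of striated muscle are made there at low levels or not at all.

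Some libraries stood apart before any comparison was made. Hippocampus air replicate 2 held the members at 24444 CPM in sum, hippocampus acrolein replicate 11 at 5188 CPM, adipose air replicate 1 at 4917 CPM, hippocampus air replicate 4 at 3075 CPM and liver air replicate 1 at 1981 CPM. Muscle air replicate 8 differed from the other muscle libraries in its leading members. Muscle air replicate 5 held the 14 transcripts restricted to adipose by the same limits at 2.98% of their mean adipose air level, against 0.0711% to 0.392% in the other 11 muscle libraries. The main acrolein comparisons that rest on these libraries are also given without them.

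In muscle the 134 members took 24.6% to 46.3% of all reads in the 6 air libraries and 33.5% to 40.9% in the 6 acrolein libraries. Their summed level was 356507 ± 73719 CPM in air (SD, n = 6) and 386927 ± 27842 CPM in acrolein (SD, n = 6). Both extremes were air libraries, replicate 8 at 246378 CPM and replicate 6 at 462550 CPM, and the acrolein libraries lay between them. All 134 members were detected in every muscle library.

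A few members carried most of these reads. The 10 with the most reads made up 68.1% of the summed air level and the first 2 alone 35.1%, whereas the median member stood at 423 CPM. There were 40 members at 1000 CPM or more and 27 under 100 CPM. CPM is not corrected for transcript length, so these shares describe reads and do not rank expression between transcripts.

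ENSRNOT00000082871, which had the most reads of any member in air, ranged from 4615 CPM in air replicate 8 through a median of 59896 CPM to 135427 CPM in air replicate 6. Its acrolein libraries ranged from 42793 through 82723 to 103426 CPM. One library, air replicate 8, lay far below all the others, and the remaining air and acrolein values overlapped. ENSRNOT00000114553, the next in reads, ranged from 51611 through 60000 to 65738 CPM in air and from 43329 through 58739 to 88474 CPM in acrolein. It was not low in air replicate 8, where it stood at 55887 CPM. ENSRNOT00000082871 led in 8 of the 12 muscle libraries and ENSRNOT00000114553 in the other 4.

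**Figure D1:**
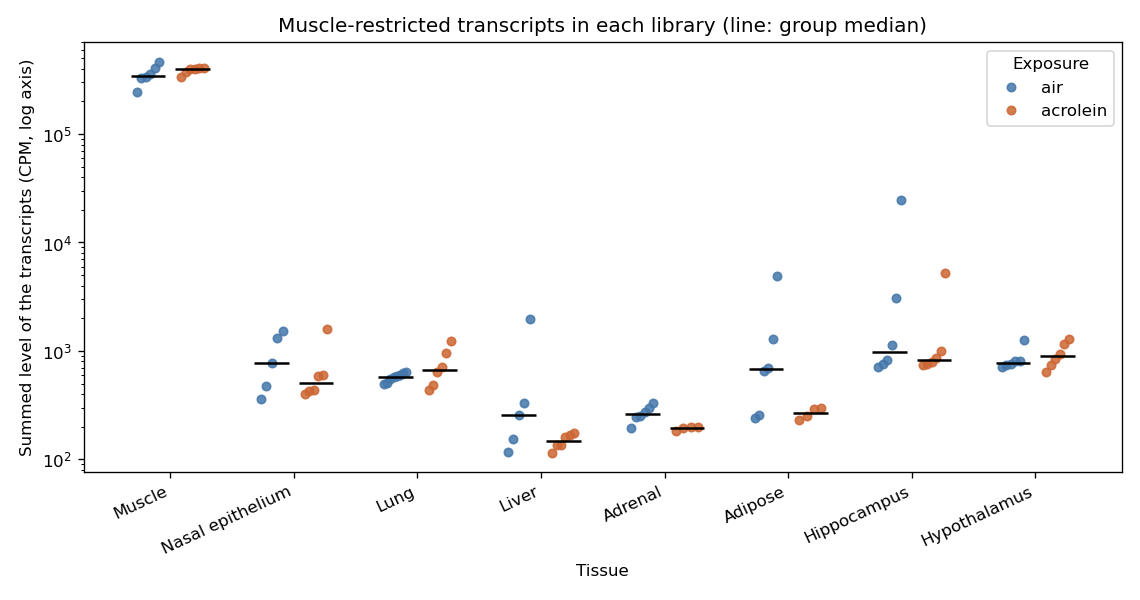
Summed level of the 134 muscle-restricted transcripts in each of the 92 libraries (CPM, log axis) by tissue and exposure, with 1 point per library and a line at the group median. Muscle libraries lie between 246378 and 462550 CPM, and outside muscle the highest points are hippocampus air replicate 2 (24444 CPM), hippocampus acrolein replicate 11 (5188 CPM) and adipose air replicate 1 (4917 CPM).

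The SD of log2(CPM + 1) over the 12 libraries had a median of 0.59 for members and 0.40 for the 3374 other rows at 30 CPM or more. It ran from 0.20 for ENSRNOT00000048687 to 3.33 for ENSRNOT00000024186, and 12 members had an SD of at least 1.5. These values pool both exposures and describe the libraries, with no test.

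Much of the largest variation lay in a small set of members. ENSRNOT00000024186 had the highest SD of all, and 11 more members followed it with a Pearson correlation of at least 0.9 on the log2(CPM + 1) scale over the 12 muscle libraries. Pairwise correlations within these 12 co-varying members ran from 0.85 upwards with a median of 0.94. The set was chosen from the same values that it describes, and its limit was set after the data were seen. Of the 12 members with an SD of at least 1.5, 11 belonged to it.

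ENSRNOT00000024186 stood at 8.79 CPM in air replicate 5 and at 37299 CPM in air replicate 8, with an air median of 1261 CPM. In acrolein it ranged from 87.8 CPM in replicate 9 through a median of 2121 CPM to 18773 CPM in replicate 15. The lowest and the highest library of all were both air libraries. Summed over the 12 co-varying members, the level was 45.3 CPM in air replicate 5, 198 CPM in acrolein replicate 9, 15364 CPM in acrolein replicate 10, 24141 CPM in acrolein replicate 15 and 49082 CPM in air replicate 8. The set thus made up 0.0137% of all member reads in the library where it was lowest and 19.9% in the library where it was highest.

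The next strongest followers were ENSRNOT00000034957, from 0.395 to 2185 CPM, and ENSRNOT00000109106, from 0.966 to 1861 CPM. ENSRNOT00000092778 varied least within the set, from 6.63 to 140 CPM. Without air replicate 8, 11 members reached a correlation of 0.9, counting ENSRNOT00000024186 itself, against 12 counted in the same way with that library. All 11 belonged to the set. Among the 3374 other rows at 30 CPM or more, 12 reached 0.9 as well, and their air muscle level was 0.0640 to 17.8 times that of the highest other tissue (median 1.74).

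A further 4 members ran the other way, with a correlation of -0.7 or below. ENSRNOT00000004528 had the most negative value, -0.81, with 269 CPM in air replicate 5 and 31.0 CPM in air replicate 8. ENSRNOT00000010178 stood at 284 CPM and 39.7 CPM in the same libraries. Correlations over 12 libraries of 2 exposures that differ in depth are a description and carry no p-value.

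**Figure D2:**
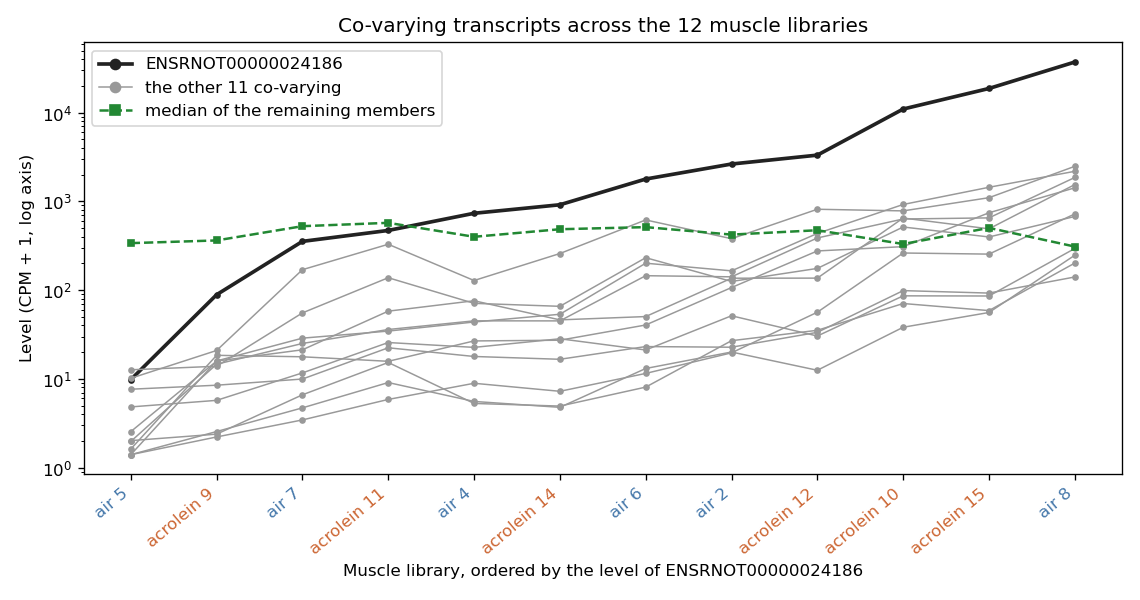
Level of the 12 co-varying members (CPM + 1, log axis) in the 12 muscle libraries, ordered by ENSRNOT00000024186 (thick line), with the median of the remaining 122 members dashed. The co-varying members climb together from air replicate 5 to air replicate 8 while the dashed median does not follow them, and air and acrolein libraries are mixed along the axis.

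Outside muscle the members were scarce and unevenly so. Their median air level was 0.418% of the muscle level in adipose, 0.314% in hippocampus without air replicate 2, 0.243% in nasal epithelium, 0.189% in hypothalamus, 0.134% in liver, 0.107% in lung and 0.0314% in adrenal. The middle 50% of members spanned 0.303% to 0.702% in adipose and 0.00160% to 0.263% in adrenal. Ranges of neighbouring tissues overlapped, and since each table was normalized on its own this order was not tested. Single libraries weighed on the means. The median member stood at 1.55% of the muscle level in adipose air replicate 1, against 0.00826% to 0.329% in the other air adipose libraries. In liver it was 0.528% in air replicate 1, against 0% to 0.0455% in the other air livers. In hippocampus it was 0.820% in air replicate 4, against 0.0696% to 0.257% in the other air libraries of that mean. The order, and the counts of the highest other tissue that follow, were not repeated without these libraries.

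Adipose was the highest other tissue for 56 members, hippocampus for 23, hypothalamus for 16, lung for 13, nasal epithelium for 11, adrenal for 10 and liver for 5. No read was found in any air adrenal library for 28 members, which was the case for 3 in lung and 1 in liver. The fold of muscle over the highest other tissue had a median of 161 and a maximum of 635 for ENSRNOT00000114553, and 90 members exceeded 100-fold.

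The leading member outside muscle was usually not the one that led in muscle. ENSRNOT00000024575 led the members in 41 of the 80 libraries outside muscle, ENSRNOT00000118806 in 16 and ENSRNOT00000082871 in 9. ENSRNOT00000024575 stood at 285 CPM in air hippocampus and 6070 CPM in air muscle, and ENSRNOT00000118806 at 156 CPM in air hypothalamus and 3808 CPM in air muscle. ENSRNOT00000082871 led in 8 of the 10 libraries with the highest summed level. These identifiers were singled out after their values were seen.

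The libraries with the highest sums held most members above the other libraries of their tissue. In hippocampus air replicate 2 the members stood at a median of 6.84% of their air muscle level, with a middle 50% from 5.38% to 7.79%, and 133 of the 134 exceeded every value in the 9 hippocampus libraries with low sums. The summed level of those 9 was 707 to 1130 CPM. In hippocampus acrolein replicate 11 the median was 1.42% and 117 members exceeded the same 9 libraries, and in hippocampus air replicate 4 the median was 0.820% with 97 members. The corresponding share over all 20508 rows was 16.4%, 9.37% and 8.83%. The rule left hippocampus air replicate 2 out and required members to be low in the mean of the other air hippocampi. Its place above those libraries was thus partly built in. All rows were not chosen in this way and are not a matched baseline.

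Adipose air replicate 1 held the members at a median of 1.55% of the muscle level, with 115 above each of the 9 other adipose libraries. Liver air replicate 1 held them at 0.528%, with 116 above each of the 10 other liver libraries, which summed to 115 to 333 CPM. Over all rows, which were not chosen by the rule, these shares were 18.8% and 12%. Spearman's correlation across the 134 members between a library and the air muscle mean was 0.95 in hippocampus air replicate 2, 0.96 in acrolein replicate 11, 0.94 in air replicate 4, 0.90 in adipose air replicate 1 and 0.94 in liver air replicate 1. It was 0.24 to 0.35 in the 6 acrolein livers, but 0.48 to 0.82 in the 9 hippocampus libraries with low sums. Values of 0.88 in nasal acrolein replicate 14, 0.87 in nasal air replicate 2 and 0.88 in 1 adipose library labelled 8 came close to the highest. Members are not independent replicates, and these values have no test.

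The place of the co-varying members in these libraries depended on the muscle reference. Against the mean of all 6 air muscle libraries, their median was 1.27% in hippocampus air replicate 2 (remaining 122 members 6.98%), 0.286% in adipose air replicate 1 (1.59%), 0.105% in liver air replicate 1 (0.541%), 2.02% in hippocampus acrolein replicate 11 (1.35%) and 1.40% in hippocampus air replicate 4 (0.780%). Muscle air replicate 8 carried much of that mean. Without it the co-varying median was 7.24% in hippocampus air replicate 2 (remaining 6.92%), 1.62% in adipose air replicate 1 (1.5%) and 0.443% in liver air replicate 1 (0.525%), so the lower place in the first 2 was gone and that in liver was smaller. In hippocampus acrolein replicate 11 it was then 9.19% (1.32%) and in hippocampus air replicate 4 it was 6.50% (0.770%).

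As a share of all member reads, which needs no muscle reference, the co-varying set took 0.319% in hippocampus air replicate 2, 5.21% in acrolein replicate 11 and 5.29% in air replicate 4. The 3 hippocampus libraries with high sums thus differed in this share, as the muscle libraries did.

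Transcripts restricted to other tissues by the same limits were raised in some of these libraries too. Hippocampus air replicate 2 held the 85 nasal-restricted rows at 1.89% of their nasal air level and the 268 liver-restricted rows at 1.31% of their liver air level, where the medians over hippocampus libraries were 0.0768% and 0.0647%. In hippocampus acrolein replicate 11 these were 0.0330% and 0.0558%. Liver air replicate 1 held the nasal rows at 0.412%, the highest of the 11 livers, whose median was 0.0856%. How these transcripts came into the libraries was not tested.

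**Figure D3:**
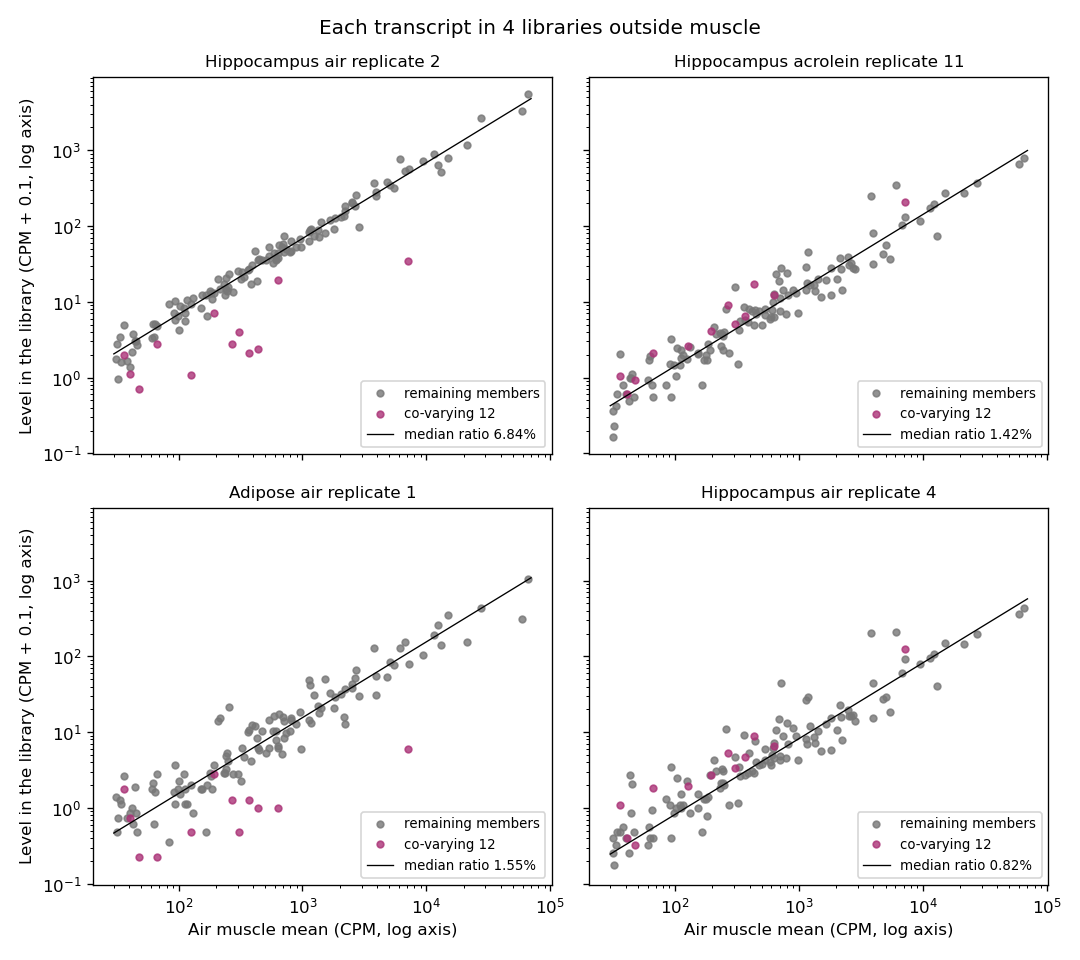
Level of each of the 134 members in 4 libraries outside muscle (CPM + 0.1, log axis) against its mean in air muscle (CPM, log axis), with a line at the median ratio and the 12 co-varying members coloured. Most grey points lie near the line in all 4 panels. The coloured points lie lower in hippocampus air replicate 2 and adipose air replicate 1, which holds only with muscle air replicate 8 in the mean on the horizontal axis: without it their median ratio was 7.24% and 1.62%, close to the remaining members.

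Restriction to muscle was nearly the same in the acrolein libraries, which the rule had not used. By their acrolein means, 128 of the 134 members met both limits, and the median fold over the highest other tissue was 152. Of the 6 that did not, ENSRNOT00000004888, ENSRNOT00000018890 and ENSRNOT00000054959 were at 29.9, 19.5 and 16.8 CPM in muscle. The other 3 kept their level but reached only 19.8-fold (ENSRNOT00000074803), 17.9-fold (ENSRNOT00000100627) and 16.1-fold (ENSRNOT00000086096). In all, 134 rows met the limits in acrolein.

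Members lay close to both limits of the rule. Just inside the fold limit were ENSRNOT00000000676 at 20.2 and ENSRNOT00000024575 at 21.3, and just outside it ENSRNOT00000067358 at 19.7 and ENSRNOT00000026261 at 17.8. Just inside the level limit were ENSRNOT00000117577 at 31.5 CPM, ENSRNOT00000004888 at 31.8 CPM and ENSRNOT00000054959 at 32.3 CPM. Just outside it, ENSRNOT00000073259 stood at 29.6 CPM, ENSRNOT00000010484 at 27.6 CPM and ENSRNOT00000015492 at 27.5 CPM.

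Acrolein was then compared with air within each tissue to ask whether exposure moved these transcripts. limma was fitted on log2(normalized count + 1), and rows with a Benjamini-Hochberg adjusted p no larger than 0.1 that differed by more than 1.2-fold were called. It called 0 of the members in each of the 8 tissues. The whole tables had 132 calls in nasal epithelium, 69 in liver, 1 in lung and 0 elsewhere. Fold changes below are log2 differences of acrolein minus air on that scale, which understates the change of low rows. In bulk tissue, fewer cells of a type and less RNA per cell cannot be told apart.

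In muscle, the tissue that defines them, members did not pass the test, and neither did any other row (0.0% of 19204 called by limma). At an unadjusted p under 0.05 there were 2 members, against 2.99% of all rows, and edgeR (0.0% of all rows) and DESeq2 (0.0293%) on recovered reads called 0 members. The log2 differences ran from -0.75 to 1.54 with a median of 0.23, against -0.01 for all rows, and 110 members were above 0 and 24 below, where 51.7% of all rows were below. Air replicates 5 and 8 weighed on that median, which was 0.06 without replicate 8, 0.08 without replicate 5 and -0.07 without both. It was 0.12 when the tables were rescaled to the same total, which moved the median of all rows to -0.11.

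The members with the smallest p-values in muscle show the size of what was seen. ENSRNOT00000054959 ranged from 14.4 through 28.4 to 70.6 CPM in air and from 8.66 through 15.3 to 31.2 CPM in acrolein. The groups overlapped, and the highest value was again air replicate 8. Its log2 difference was -0.75 (SE 0.33), the limma adjusted p was 1.00 and the exact two-sided permutation p was 0.0758. Without air replicate 8 the difference was -0.55 and the air mean 24.7 CPM, under the level limit, so this member was chosen through a high air value and a lower acrolein value was built into its choice. ENSRNOT00000117577 ranged from 16.6 through 25.6 to 53.5 CPM in air and from 27.0 through 40 to 72.3 CPM in acrolein, also with overlap. Its log2 difference was 0.68 (SE 0.32), with a limma adjusted p of 1.00 and an exact permutation p of 0.154.

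No member separated air from acrolein muscle, where 0.0781% of all rows did not overlap between the groups. ENSRNOT00000082871 differed by 0.85 (SE 1.45, limma adjusted p 1.00, exact permutation p 0.416), and by 0.26 with either edgeR or DESeq2. ENSRNOT00000024186 differed by 1.11 (SE 1.63, limma adjusted p 1.00, exact permutation p 0.636), by 0.00957 with edgeR and by 0.00125 with DESeq2. All 12 co-varying members had a positive log2 difference, with a median of 0.90 and a median SE of 1.22, and the remaining 122 had a median of 0.21 with a median SE of 0.34. That direction changed with the scale, the libraries and the tool. By mean CPM, 9 of the 12 were lower in acrolein. The limma median was -0.04 without air replicate 5 (5 higher, 7 lower) and 1.76 without air replicate 8. Without both it was 0.80 (12 higher, 0 lower). Medians by edgeR and DESeq2 were 0.01 and -0.00222. With ENSRNOT00000024186 spread over more than 3 powers of 10 between air libraries, a difference of this size was not detectable.

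In liver most members had lower values after acrolein, and the difference followed a few air libraries. Of 125 members tested, 118 had a lower mean in acrolein, against 50.3% of all rows, and the median log2 difference was -1.13. limma called 0 of them (0.368% of all rows called, lowest member adjusted p 0.12), with 46 at an unadjusted p under 0.05, all lower, against 19.2% of all rows in either direction and 8.88% lower. edgeR called 34, all lower, where it called 1.53% of all rows and 1.09% as lower. DESeq2 called 18, also all lower, where it called 8.28% of all rows and 4.44% as lower. It gave no adjusted p for some members, among them ENSRNOT00000082871 and ENSRNOT00000098001, and these count as not called.

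The calls moved both ways with single air libraries. Without air replicate 1, edgeR called 1 member (0.0594% of all rows), DESeq2 6 (2.23%) and limma 0 (0.0756%), with a limma median of -0.57. Without air replicates 1 and 2, limma (0.049% of all rows), edgeR (0.0272%) and DESeq2 (0.741%) called 0 members, with a limma median of -0.36. Without air replicate 5, limma called 35 members, all lower (9.31% of all rows called), and without air replicate 7 it called 29, all lower (5.04%), with medians of -1.40 and -1.44.

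ENSRNOT00000082871 makes the pattern plain. Its reads in the air livers numbered 11112 in replicate 1, 712 in replicate 2, 144 in replicate 8, 2 in replicate 5 and 0 in replicate 7. There was no read in any of the 6 acrolein livers, 0 of 102743703 reads, which allows a level of up to 0.0292 CPM over the group. The air mean of 94.6 CPM was at least 3240-fold higher than that floor of 3 reads, and at least 370-fold higher without air replicate 1. The limma adjusted p was 0.12 (0.0338 to 0.224 with each replicate left out) and the exact two-sided permutation p 0.0303 (n = 5 and 6), and because air replicate 7 was also at 0 the groups touched.

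ENSRNOT00000114553 stood at 256, 68.5, 5.03, 0.996 and 0.101 CPM in air livers 1, 2, 8, 5 and 7. In acrolein it ranged from 0.0660 through 0.254 to 0.322 CPM. Air replicate 7 lay inside the acrolein range and the other 4 above it. The log2 difference was -4.61 (SE 1.37), with an adjusted p of 0.133 by limma, 0.0428 by edgeR and 1.45e-06 by DESeq2, and an exact permutation p of 0.0260. The deposited liver values of this transcript thus span more than 3 orders of magnitude within the air group alone.

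Only 3 members did not overlap between air and acrolein livers, all lower, against 2.49% of all rows in either direction and 1.24% lower. These were ENSRNOT00000010561, ENSRNOT00000098001 and ENSRNOT00000094646. ENSRNOT00000098001 had 387, 16, 7, 1 and 3 reads in air livers 1, 2, 8, 5 and 7 and at most 1 read in each acrolein liver. Air replicate 5 and the highest acrolein livers each had 1 read. Their separation, 0.111 against at most 0.0685 CPM, thus rests on library depth. Its log2 difference was -3.18 (SE 0.87, limma adjusted p 0.124, exact permutation p 0.00433). Of the 134 members, 30 had no read in any acrolein liver, and 22 of those had reads in at least 2 air livers. Acrolein livers were uniform, at 115 to 173 CPM in sum, and air livers were not, at 116, 155, 256, 333 and 1981 CPM.

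**Figure D4:**
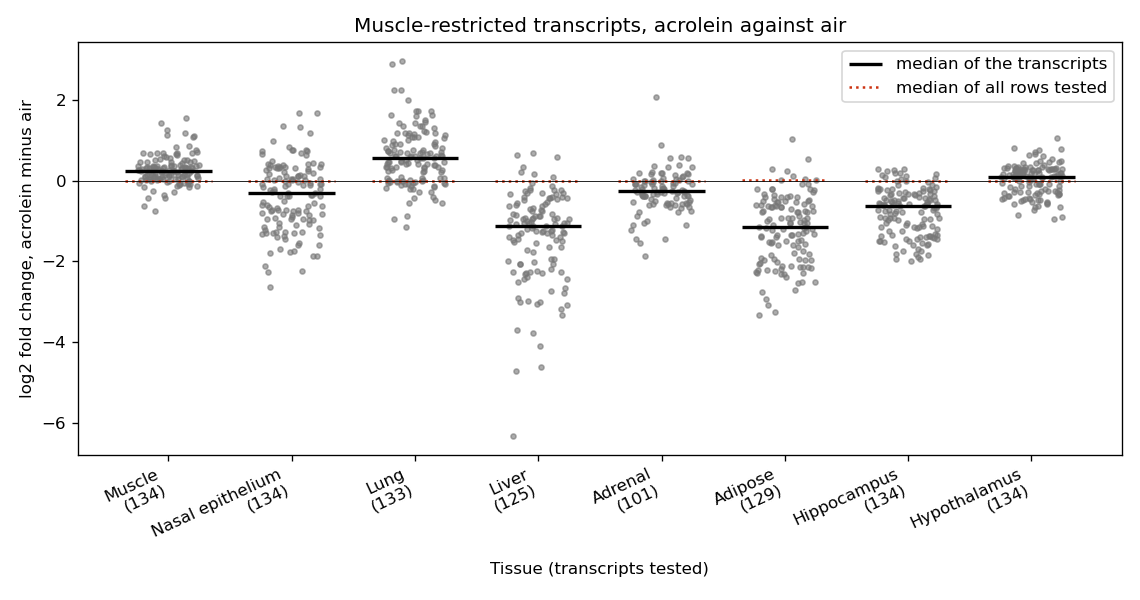
Log2 difference of acrolein minus air for each member in each tissue (points), with the median of the members (solid line) and of all rows tested (dotted line). Median member differences were -1.13 in liver, -1.14 in adipose, -0.63 in hippocampus and 0.55 in lung, while the medians of all rows lie at 0, and limma called none of the points.

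In lung the members leaned the other way, and again a few libraries carried the difference. The 8 air lungs held 496 to 633 CPM in sum and the 6 acrolein lungs 435, 488, 638, 705, 955 and 1231 CPM, so acrolein spread to both sides of air. Of 133 members tested, 103 were higher in acrolein and 30 lower, where 50.9% of all rows were lower, and the median log2 difference was 0.55. No member separated the groups (0.0898% of all rows did). limma called 0 (0.00499% of all rows), and 20 members had an unadjusted p under 0.05, 18 of them higher, against 7.67% of all rows in either direction and 4.38% higher. edgeR called 0 (0.0299% of all rows) and DESeq2 4, all higher, against 0.463% of all rows in either direction and 0.39% higher. Without acrolein replicates 14 and 15, the median fell to 0.05 and limma, edgeR and DESeq2 called 0 members. The share of all rows called without both is not given here, so the lost calls are not a result about the members. Without replicate 14 alone DESeq2 called 1 (0.395% of all rows), and without replicate 15 alone also 1 (0.205%). The labels of lung acrolein replicates 14 and 15 start with a capital letter, unlike those of the other lung libraries. The same holds for liver air replicates 1 and 2 among the livers and for 1 of the 2 adipose libraries labelled 8. What the capital stands for is not given. In lung and liver it falls in 1 exposure only. Labels without a capital remain in both exposures of these tissues. The fits without lung acrolein replicates 14 and 15, and without liver air replicates 1 and 2, compare the exposures among them. Whether the capital itself goes with the levels was not tested.

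The 4 that DESeq2 called were ENSRNOT00000101663, ENSRNOT00000040598, ENSRNOT00000110253 and ENSRNOT00000112958. ENSRNOT00000101663 ranged from 0 through 0.0482 to 0.459 CPM in air. In acrolein it had 1, 1, 118, 11, 200 and 23 reads in replicates 9, 10, 12, 13, 14 and 15, or up to 7.36 CPM. Its highest libraries were replicates 14 and 12, and replicates 9 and 10 lay within the air range. The log2 difference was 2.88 (SE 0.77), with an adjusted p of 0.482 by limma, 0.205 by edgeR and 0.0387 by DESeq2, and an exact permutation p of 0.0113.

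ENSRNOT00000040598 ranged from 0.903 through 1.27 to 2.42 CPM in air lung and from 0.696 through 1.90 to 29.8 CPM in acrolein lung. Only acrolein replicates 14 and 15, at 6.95 and 29.8 CPM, exceeded the air range. The log2 difference was 1.00 (SE 0.62, limma adjusted p 0.693, exact permutation p 0.205), and it was -0.14 without those 2 libraries. Acrolein lungs 14 and 15 differed from each other in the co-varying members, which took 2.58% of member reads in replicate 14 and 0.218% in replicate 15.

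In nasal epithelium 84 of 134 members were lower in acrolein, against 50.2% of all rows, with a median log2 difference of -0.31. The groups overlapped for every member (1.38% of all rows did not). limma called 0 (0.651% of all rows), with 9 at an unadjusted p under 0.05 against 12.2% of all rows, and edgeR called 0 (0.552% of all rows). DESeq2 called 1 (2.2% of all rows), ENSRNOT00000029994, which was higher. It stood at 1.09, 0.265, 0.447, 1.21 and 1.26 CPM in the air libraries and ranged from 1.19 through 2.84 to 4.69 CPM in acrolein. The ranges overlapped narrowly, the log2 difference was 1.68 (SE 0.48), and the adjusted p was 0.242 by limma and 0.0360 by DESeq2.

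The nasal libraries were also uneven in the members as a whole. Air replicates 2 and 8 held 1535 and 1320 CPM in sum and the other 3 held 357 to 765 CPM, and acrolein replicate 14 held 1579 CPM while the other 5 held 404 to 593 CPM. Without acrolein replicate 14 the median difference was -0.60, DESeq2 called 27 members (25 lower and 2 higher, against 5.89% of all rows called) and limma and edgeR called 0. The shares of all rows called by limma and edgeR without that library are not given here.

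In adipose tissue 121 of 129 members tested were lower in acrolein, against 49.7% of all rows, with a median log2 difference of -1.14. limma called 0 (0.0% of all rows), as did edgeR (0.0%) and DESeq2 (0.00488%), and 14 members had an unadjusted limma p under 0.05, all lower, against 2.71% of all rows in either direction and 1.5% lower. There were 2 members that did not overlap between the groups, ENSRNOT00000011956 and ENSRNOT00000089066, both lower, against 1.03% of all rows in either direction and 0.486% lower. Air sums were 4917, 241, 257 and 695 CPM in replicates 1, 2, 5 and 7, and 654 and 1276 CPM in the 2 libraries labelled 8, which enter the fit as 1 averaged sample. Acrolein sums were 232 to 299 CPM. Without air replicate 1 the median was -0.60.

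ENSRNOT00000082871 had 8069 reads in adipose air replicate 1, 0 in replicate 2, 1 in replicate 5, 16 in replicate 7, and 65 and 1656 in the pair labelled 8. In acrolein it had 4, 55, 0 and 2 reads. Both groups thus contained libraries at or near 0 and libraries well above it. Its log2 difference was -3.26 (SE 2.34, limma adjusted p 0.998, exact permutation p 0.381), and -1.41 without air replicate 1.

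In hippocampus the direction depended on air replicate 2. With it, 121 of 134 members were lower in acrolein, against 50.6% of all rows, with a median log2 difference of -0.63, and without it 64 were lower and the median was 0.05. Without it 27 were lower by edgeR and 28 by DESeq2, whose medians were 0.33 and 0.31. The limma median was -0.49 without air replicate 4 and -1.15 without acrolein replicate 11. No member separated the groups (0.0951% of all rows did). limma, edgeR and DESeq2 each called 0 members and 0.0% of all rows, and no member had an unadjusted limma p under 0.05, against 4.31% of all rows. ENSRNOT00000082871 ranged from 3.51 through 42.4 to 5455 CPM in air and from 3.19 through 14.2 to 785 CPM in acrolein. The highest value of each group was many times its median, and the groups overlapped throughout. Without air replicate 2, the edgeR log2 difference of this member turned from -2.77 to 0.43.

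In adrenal 101 members could be tested and 77 of them were lower in acrolein, against 51.2% of all rows, with a median log2 difference of -0.27. limma, edgeR and DESeq2 called 0 members (0.0%, 0.0% and 0.0878% of all rows), and 8 had an unadjusted limma p under 0.05 against 7.54% of all rows. Sums were 195 to 328 CPM in air and 182 to 197 CPM in acrolein. There were 3 members that did not overlap between the groups (1.31% of all rows), of which ENSRNOT00000010939 and ENSRNOT00000011956 were lower and ENSRNOT00000003340 was higher.

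ENSRNOT00000003340 had 1, 0, 2, 0, 2 and 0 reads in the 6 air adrenals and 15, 10, 2 and 5 reads in the 4 acrolein adrenals. In CPM the acrolein values, from 0.230 to 1.01, lay above the air values of at most 0.209. The log2 difference was 2.07 (SE 0.49), the limma adjusted p was 0.649 and the exact two-sided permutation p was 0.00952 (n = 6 and 4). The lowest acrolein library and the highest air library each had 2 reads, so their separation rests on library depth. Counts this low also leave the size of the difference uncertain.

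In hypothalamus 81 of 134 members were higher in acrolein and 53 lower, where 50.8% of all rows were lower, with a median log2 difference of 0.10. limma called 0 (0.0% of all rows), as did edgeR (0.0%) and DESeq2 (0.00488%), and 1 member had an unadjusted limma p under 0.05 against 2.69% of all rows. That member, ENSRNOT00000074803, ranged from 0.427 through 0.738 to 0.964 CPM in air and from 1.02 through 1.25 to 1.69 CPM in acrolein. It was the only member whose groups did not overlap, against 0.0854% of all rows in either direction and 0.0452% higher. Its log2 difference was 0.79 (SE 0.30), the limma adjusted p was 0.963 and the exact permutation p 0.00216, the smallest that 6 against 6 libraries allow.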

How the data were processed

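Bulk mRNA libraries of 8 rat tissues were analysed, 92 libraries in 16 groups by tissue and exposure taken from the labels. Per the labels and the study's methods, reads were aligned to rn7 in Partek Flow and normalized with DESeq2 in R 4.1.3. The deposited values are size-factor normalized counts per transcript or gene (signal, 1 table per tissue made by the authors), and all of them (100%) were whole reads after rescaling each library to its smallest step, within 0.1 of a read. The steps of 5 libraries were near 1. Levels across tissues are CPM from column sums and are descriptions, since tables were normalized separately. In each tissue, acrolein was compared with air by limma 3.58.1 (R 4.3.3, trend) on log2(normalized count + 1), over rows above 0 in at least 2 samples, with Benjamini-Hochberg adjustment over all tested rows and no covariates. edgeR 4.0.16 and DESeq2 1.42.0 on the recovered reads were alternatives, as were other pseudocounts, filters, scalings and each replicate left out. Rows without a DESeq2 adjusted p were counted as not called and stayed in its share of all rows. Among them were ENSRNOT00000082871 in liver and hippocampus and ENSRNOT00000003340 in adrenal, so 0 calls by DESeq2 can include members it did not judge. Single transcripts also had an exact two-sided permutation test on log2(CPM + 1). The 2 adipose libraries labelled 8 were averaged (reads summed for the count tools) and counted as 1. The scripts were tested on reads simulated from the muscle libraries. Of 200 rows changed 2-fold, limma recovered 18, edgeR 17 and DESeq2 64. Of 200 changed 4-fold they recovered 165, 174 and 181. With no row changed they called 0, 0 and 13 rows. The 0 calls in muscle therefore do not show that changes of about 2-fold were absent.

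The members, the gene lists and the tests were chosen with earlier results of these data known. Named by rule are the member with the most reads and, among called members, at most 2 that rose and 2 that fell, of which limma gave none. All other identifiers, the 12 co-varying members and the fits without named pairs of libraries or with a count tool and fewer libraries, and the muscle mean without air replicate 8, were chosen after the values were seen. Gene lists by symbol were not used here, because identifiers could not be paired with symbols. p-values measure the spread between libraries of a group, and intervals and floors cover counting error only.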

Additional observations from a re-analysis of the deposited data

Results flagged for a closer look

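Within a tissue and exposure, a library was listed when its gap to the nearest library was too large by Dixon's 95% limit. The gap was taken as a part of the group's range, and 10 of the 28 groups of values looked at exceeded the limit. Some groups were picked after their values were seen, and the rule used the air values. The count is therefore not set against a rate by chance. For the summed level of the 134 members these were nasal acrolein replicate 14 at 1579 CPM (next highest 593), liver air replicate 1 at 1981 CPM (next 333), adipose air replicate 1 at 4917 CPM (next 965, the mean of the pair labelled 8), hippocampus air replicate 2 at 24444 CPM (next 3075), hippocampus acrolein replicate 11 at 5188 CPM (next 996) and hypothalamus air replicate 7 at 1270 CPM (next 805). Adrenal acrolein replicate 10 was the lowest of 4 at 182 CPM, with the next at 194 CPM.

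In muscle, air replicate 8 was listed for the co-varying members at 49082 CPM in sum (next 3824), for ENSRNOT00000024186 at 37299 CPM (next 2640) and for ENSRNOT00000054959 at 70.6 CPM (next 34.5). ENSRNOT00000024186 is part of the sum, so these are not separate observations.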

How the results depend on the processing

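No paired analysis was possible because air libraries carry the numbers 1 to 8 and acrolein libraries 9 to 16, so the groups share no replicate number.

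The number of members stayed between 107 and 165 under 13 other choices of limits, mean, scale and libraries. Calls of members stayed at 0 in muscle, adrenal, adipose, hippocampus and hypothalamus under every fit run. In liver, limma called 1 with a pseudocount of 0.1, 2 with a mean of at least 10, and 0 to 35 with each replicate left out (35 without air 5, where 9.31% of all rows were called, and 29 without air 7, where 5.04% were); edgeR called 34 and DESeq2 18, or 1 and 6 without air replicate 1 (0.0594% and 2.23% of all rows). In lung DESeq2 called 4, and 1 without acrolein replicate 14 or without 15. In nasal epithelium DESeq2 called 1, and 27 without acrolein replicate 14. The median muscle difference of 0.23 was -0.12 without the 4 libraries whose labels carry an R, and 0.06 to 0.33 with each replicate left out. Without the 10 leading members, the summed level as a percent of air muscle moved from 6.86 to 6.82 in hippocampus air 2, 1.46 to 1.89 in acrolein 11, 0.863 to 1.2 in air 4, 1.38 to 1.63 in adipose air 1 and 0.556 to 0.596 in liver air 1. At a correlation of 0.95 the co-varying set had 6 members, and 17 at 0.8.

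Signs turned for 4 members that were not called by limma. In muscle ENSRNOT00000082871 was -0.16 without labels with an R, -0.00674 by edgeR without air 8 and -0.11 without air 5 and 8. ENSRNOT00000114553 was -0.0190 at the same total, -0.30 after quantile normalization, -0.0433 to 0.166 with each replicate left out (lowest without acrolein 10), -0.0505 without labels with an R and -0.0779 without air 5 and 8, and ENSRNOT00000024186 was -0.28 to 2.13 with each replicate left out (lowest without air 5). In hippocampus without air 2, ENSRNOT00000082871 was 0.43 by edgeR and 0.41 by DESeq2. In lung without acrolein 14 and 15, ENSRNOT00000040598 was -0.14 by limma, -0.14 by edgeR and -0.13 by DESeq2. Causes were not tested. Depth limits what can be shown for the 30 members without a read in acrolein liver and the 28 without one in air adrenal.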
